A study of Mus musculus with 12 samples.

Results

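The Bcl2 family of survival and death genes was followed in B16-F10 cells, an established pigmented mouse melanoma line, after transfection with FoxD3 or with a form of FoxD3 that carries an activation domain. The list holds 10 genes: the prosurvival genes Bcl2, Bcl2l1 and Mcl1, the pore-forming effectors Bax and Bak1, the BH3-only genes Bcl2l11 (Bim), Bbc3 (Puma), Pmaip1 (Noxa) and Bid, and Bnip2. Every probe set that the platform's annotation names for 1 of these genes alone was taken, which gave 35 of the 34945 probe sets with 1 gene symbol and covered 9 of the 10 genes. Bax had no such probe set in the annotation used and was not analysed here. The 25 probe sets of 8 genes that lay above the brightness limit were tested, among 20967 in all. The other 10 were too dim, and they include the single probe set of Pmaip1.

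The series holds 12 arrays in 3 groups of 4. One group received the empty vector pMES, one received pMES with chicken FoxD3, and one received pMES with chicken FoxD3-VP16, in which the VP16 activation domain replaces the C-terminal repression domain of FoxD3. All 3 vectors make EGFP from the same transcript through an IRES and are driven by the chick beta-actin promoter, and in all groups the cells positive for EGFP were taken by sorting 24 h after transfection. Expression was thus transient and in 1 line, and the empty-vector cells were transfected and sorted like the others. Whether replicates came from separate cultures is not in the labels, and the p-values therefore cover the spread among these 12 arrays, which can be technical. Both vectors were compared with the same 4 empty-vector arrays.

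Bcl2 family proteins decide whether the outer mitochondrial membrane is opened, a step that releases cytochrome c and starts the caspase cascade. Prosurvival members hold the effectors Bax and Bak1 in check, and BH3-only members relieve that check or activate the effectors when a cell is stressed. In the melanocyte lineage Bcl2 is known as a survival gene under the pigment cell regulator Mitf. FoxD3 is a forkhead protein that marks the early neural crest, the source of melanocytes.

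Levels are given as log2(intensity + 16) after quantile normalization and changes as differences on that scale, which understates the change of dim probe sets. A probe set is called changed at a Benjamini-Hochberg adjusted p under 0.05 in limma over all tested probe sets, with no term for the replicate number. Arrays with the same replicate number deviated together. The adjusted p from a fit that has the number as a block is therefore printed wherever it alters a call of a member probe set. The 3 arrays numbered 1 stood apart: their hybridization controls were at 14.5 to 14.7 and their ribosomal RNA probe sets at 12.8 to 13.1, against 11.8 to 13.1 and 9.31 to 10.1 on the 9 others. Results that rest on them are also given without them. All 8 melanocyte markers were above the brightness limit, and their summed intensity was 208102 to 230743 with the empty vector, 182306 to 200993 with FoxD3 and 194374 to 212816 with FoxD3-VP16. Of 8 fibroblast markers 4 were above the limit, while Col3a1, Dcn, Lum and Thy1 stayed below it, and the summed intensity of all 8 was 446 to 632, 1097 to 1385 and 821 to 1156 in the same order. The 4 did not move one way with FoxD3: Col1a1 (1423669_at, 2.68, adjusted p = 0.0141) and Pdgfrb (1436970_a_at, 1.84, adjusted p = 0.00381) were called higher. Pdgfra differed by 1.21 and was called only with the block (adjusted p = 0.0243, and 0.0897 without it). The 3 Col1a2 probe sets differed by -0.98, -0.75 and -0.72 and were called in neither fit. With FoxD3-VP16 against the empty vector 1 of the 8 tested fibroblast marker probe sets was called, where 0.3% of all were. It was Pdgfrb 1436970_a_at, which was higher (1.60, adjusted p = 0.0362). Of the 14 tested melanocyte marker probe sets 2 were called with FoxD3, where 2.48% of all were. Both were of Tyr and lower (-1.04 and -0.93, adjusted p = 0.0275 and 0.0365). Tyr 1417717_a_at differed by -0.78 and was called only with the block (adjusted p = 0.000631, and 0.135 without it). Between the transgenes 3 were called, where 6.71% of all were. All were of Tyr and higher with FoxD3-VP16 (0.81 to 0.91, adjusted p = 0.0262 to 0.0453). Neither the keratinocyte nor the endothelial markers reached the limit (0 of 4 and 0 of 5 genes on the array), and of the leukocyte markers 3 of 7 did. The part of these markers in the results was not tested, and in RNA from a bulk of cells fewer cells of a type and less RNA per cell cannot be told apart. The mouse Foxd3 probe set, at 4.29 to 5.26, was too dim to test and does not read the chicken transgene, so it checks nothing.

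With FoxD3, Bcl2 was the single member called against the empty vector, by 1 of its 5 probe sets, which fell. That is 1 of 25 member probe sets (4%), where 2.48% of all tested probe sets were called. With the replicate block 7 of 25 were called against 14.3% of all: 4 Bcl2 probe sets were lower, and Bak1, Bid and Bcl2l11 were higher with 1 probe set each. An unadjusted p under 0.05 was reached without the block by 7 of 25 (4 higher, 3 lower), and by 13.2% of all. Without the arrays numbered 1 the count was 3 of 25 against 5.22% (2 Bcl2 probe sets lower and Bak1 higher). With FoxD3-VP16 no member was called against the empty vector (limma, 0 of 25, against 0.3% of all), although 2 member probe sets, both higher, had an unadjusted p under 0.05, as did 8.48% of all. The block called 3 of 25 against 6.75% of all, and without the arrays numbered 1 there were 0 of 25 against 1.19%. Between FoxD3-VP16 and FoxD3, Bid was called, by 1 of its 3 probe sets, which was lower with FoxD3-VP16. That is again 1 of 25, where 6.71% of all probe sets were called, and the block called 11 of 25 (6 higher, 5 lower) against 24.4%. Here too 7 of 25 (4 higher, 3 lower) had an unadjusted p under 0.05 without the block, as did 19.5% of all. Without the arrays numbered 1 it was 4 of 25 against 12.8%. The 4 arrays of one group lay entirely above or below the 4 of the other for 5 of 25 member probe sets with FoxD3 against the empty vector (9.56% of all), for 0 with FoxD3-VP16 against the empty vector (5.09%) and for 5 between the transgenes (15.4%).

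**Figure D1:**
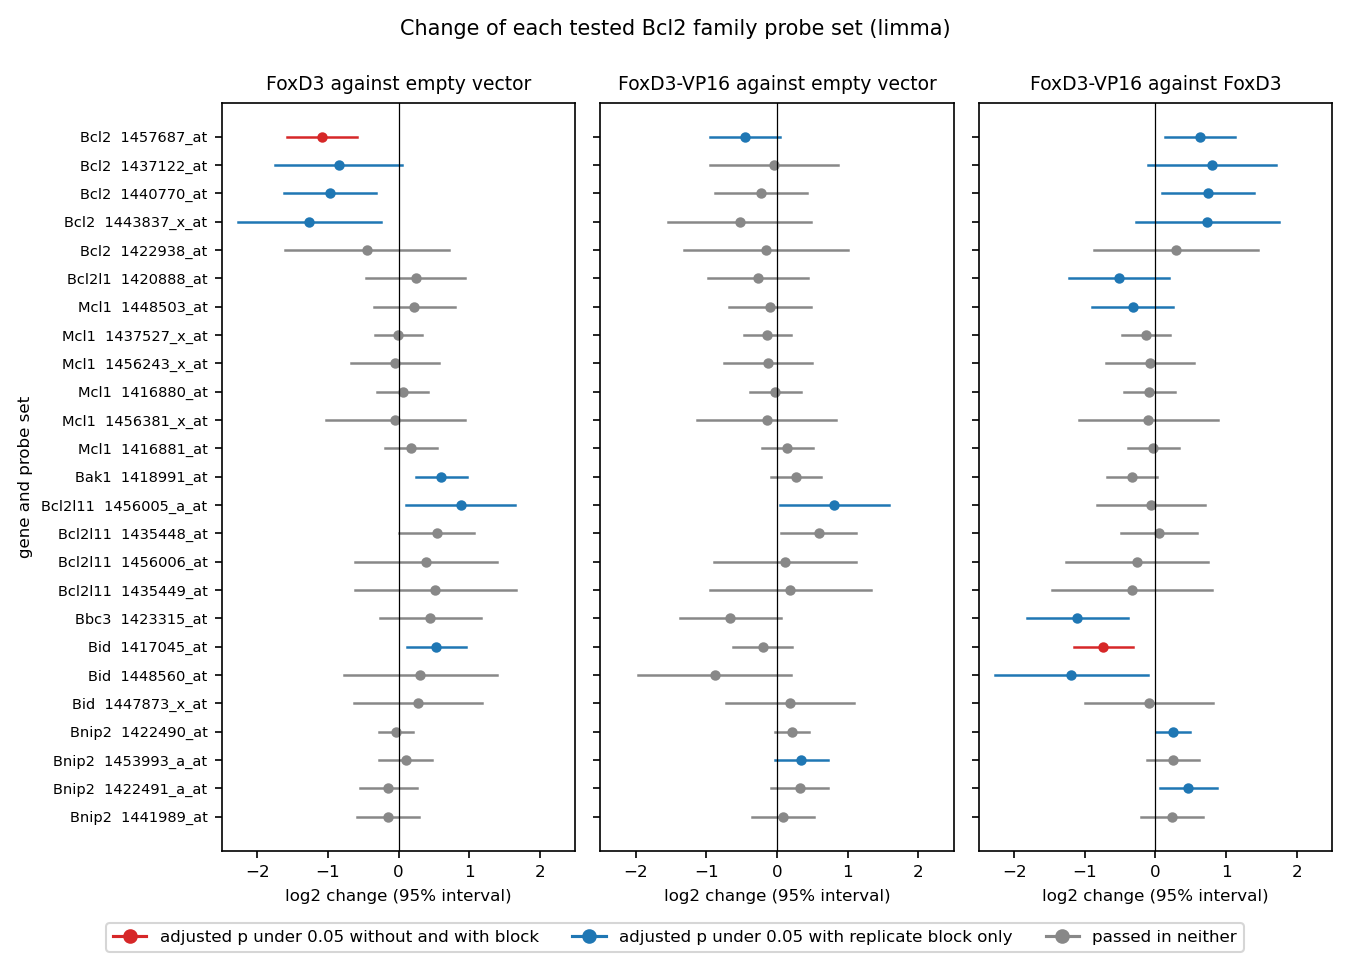
Log2 change of each of the 25 tested Bcl2 family probe sets with its 95% interval from the fit without a block, in the 3 comparisons. Bcl2 1457687_at lies at -1.09 with FoxD3 and Bid 1417045_at at -0.74 between the transgenes, the only points called without the block.

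Bcl2, which blocks the opening of the mitochondrial membrane, was read by 5 probe sets, all above the brightness limit. Its brightest, 1457687_at, was at 10.64, 10.08, 10.90 and 10.94 on the empty-vector arrays numbered 1 to 4. It was at 9.52, 9.26, 9.82 and 9.61 with FoxD3. With FoxD3-VP16 it was at 10.12, 9.71, 10.33 and 10.59. Every FoxD3 array lay below every empty-vector array, and within each number FoxD3-VP16 lay between the 2 others. The mean went from 10.64 ± 0.40 (SD, n = 4) to 9.55 ± 0.23. Bcl2 thus fell by 1.09 on the log2 scale (SE 0.23, adjusted p = 0.0257, and 5.67e-05 with the block), or 2.13-fold. All 4 pairs of the same number showed the fall, with the differences -1.12, -0.82, -1.08 and -1.34. Single arrays were left out only in the fit without the block. There the call was lost without empty-vector array 1 (adjusted p = 0.0535), 3 (0.0877) or 4 (0.0901), and without FoxD3 array 1 (0.0585), 2 (0.0698) or 4 (0.0773). The change stayed between -1.11 and -0.99 when these arrays were left out one at a time. It was also lost without all arrays numbered 1 (-1.07, adjusted p = 0.0512), and the block without those arrays gave an adjusted p of 0.000581.

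The other 4 Bcl2 probe sets were also lower with FoxD3, and none of them was called without the block. Probe set 1440770_at was at 7.84 to 8.32 with the empty vector and at 6.43 to 7.47 with FoxD3, with no overlap. Its change was -0.98 (SE 0.30, adjusted p = 0.133; 0.00484 with the block). Probe set 1443837_x_at, at 7.67 to 8.5 and 5.75 to 7.56, did not overlap either and changed by -1.26 (SE 0.47, adjusted p = 0.232; 0.00316 with the block). Without the arrays numbered 1 both were called, at -0.89 (adjusted p = 0.0177) and -1.12 (adjusted p = 0.00990). Probe set 1437122_at overlapped between the groups, with a change of -0.85 (SE 0.42, adjusted p = 0.421; 0.0379 with the block). The dimmest, 1422938_at, disagreed in part: it was lower in 3 of 4 pairs and 0.83 higher in the pair numbered 2, and its change of -0.45 (95% interval -1.61 to 0.72) passed in neither fit. When the 5 probe sets were averaged, Bcl2 changed by -0.93 with FoxD3 and was not called (adjusted p = 0.134).

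**Figure D2:**
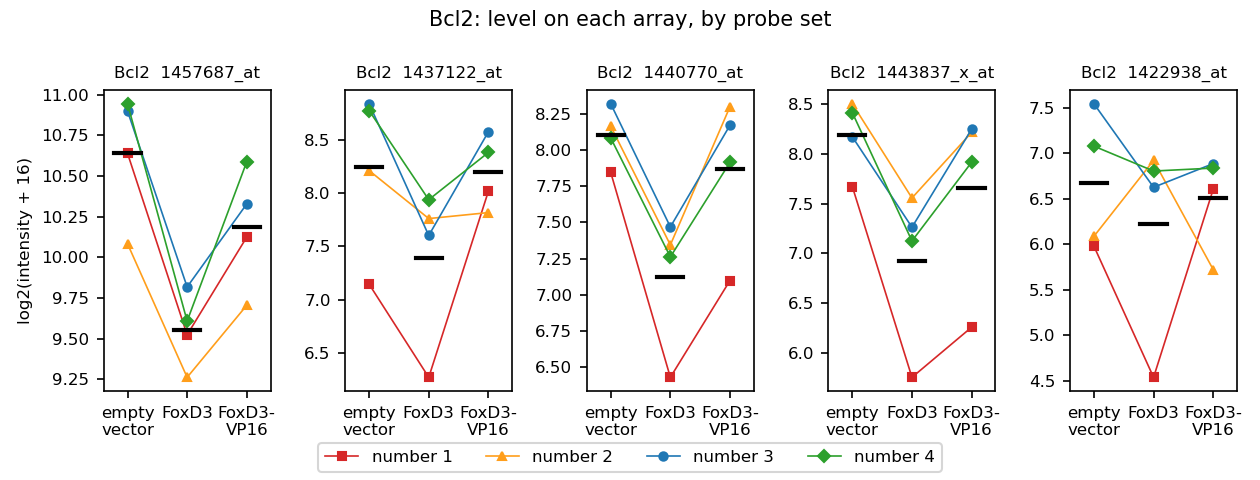
Level of each Bcl2 probe set, log2(intensity + 16), on the 12 arrays, with arrays of the same number joined and group means as black bars. All 5 means are lowest with FoxD3, and the array numbered 1 is far below the rest for 1422938_at with FoxD3 and for 1443837_x_at with FoxD3 and FoxD3-VP16.

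With FoxD3-VP16 the brightest Bcl2 probe set differed from the empty vector by -0.46 (SE 0.23, 95% interval -0.95 to 0.04, adjusted p = 0.648). It was lower in 4 of 4 pairs and passed with the block (adjusted p = 0.0316), though not with the block once the arrays numbered 1 were left out (adjusted p = 0.0647). The other 4 probe sets differed by -0.53 to -0.04, and none passed in either fit. Set directly against FoxD3, all 5 Bcl2 probe sets had higher means with FoxD3-VP16, by 0.29 to 0.80. None was called without the block, and 4 were called with it. Probe set 1457687_at was 0.63 higher (SE 0.23, adjusted p = 0.132; 0.00126 with the block), in 4 of 4 pairs. Probe set 1440770_at was 0.74 higher (SE 0.30, adjusted p = 0.185; 0.0132 with the block), and 1443837_x_at was 0.73 higher (SE 0.47, adjusted p = 0.452; 0.0362 with the block). Without the arrays numbered 1 these last 2 were called without a block (0.82 and 0.87, adjusted p = 0.0118 and 0.0149). Probe set 1437122_at, 0.80 higher, passed with the block (adjusted p = 0.0325) but not once the arrays numbered 1 were left out of it (0.52, adjusted p = 0.0743).

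The promoter of Bcl2 is shown because Bcl2 carries the call with FoxD3. The sequence is the 250 bases before its RefSeq start on chromosome 1, minus strand, chr1:106714291-106714540 (GRCm38.p6), written 5′ to 3′. Both strands were searched for an E-box of the kind Mitf binds, CACGTG. Its variant CATGTG was searched in the same way, on the other strand as well. The core that forkhead proteins are known to bind, TGTTTA, was the next. Another form of that core with a different last letter, TGTTTG, was the last. None of these letters occurs in the window, so nothing is in capitals, and this says only that they are not in these 250 bases.
Bcl2: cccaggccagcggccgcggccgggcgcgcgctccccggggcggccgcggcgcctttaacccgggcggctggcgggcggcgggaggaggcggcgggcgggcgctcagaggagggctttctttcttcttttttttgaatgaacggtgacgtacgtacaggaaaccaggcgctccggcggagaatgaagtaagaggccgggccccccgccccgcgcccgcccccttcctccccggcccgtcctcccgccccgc

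Bcl2l1, which encodes the prosurvival protein Bcl-xL, had 1 probe set above the limit, 1420888_at. It was at 9.60, 9.09, 8.66 and 9.07 with the empty vector, at 10.22, 8.77, 9.28 and 9.10 with FoxD3, and at 9.55, 8.56, 8.80 and 8.42 with FoxD3-VP16. The groups overlapped, and the array numbered 1 was the highest of each. The changes were 0.24 with FoxD3 (95% interval -0.47 to 0.94) and -0.27 with FoxD3-VP16 (-0.98 to 0.43), and neither passed in either fit. FoxD3-VP16 was 0.51 below FoxD3 in mean (SE 0.33, adjusted p = 0.452), and lower in 4 of 4 pairs. That difference passed with the block (adjusted p = 0.0428) and not once the arrays numbered 1 were left out of it (-0.47, adjusted p = 0.0953). Its 3 other probe sets, with means of 4.67 to 5.51, were too dim to test. With FoxD3 they differed from the empty vector by 0.98 (1420887_a_at), 1.09 (1426191_a_at) and -0.84 (1426050_at). These differences disagree in direction and carry no test.

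Mcl1, a short-lived prosurvival protein, was read by 6 probe sets, all above the limit. They changed by -0.05 to 0.22 with FoxD3 and by -0.15 to 0.15 with FoxD3-VP16, and none passed in either fit. The narrowest interval with FoxD3, that of 1437527_x_at, ran from -0.34 to 0.33, and the widest, that of 1456381_x_at, from -1.03 to 0.94. Between the transgenes all 6 means were lower with FoxD3-VP16, by -0.32 to -0.03. The brightest, 1448503_at, was at 12.97, 12.04, 12.37 and 12.50 with FoxD3 and at 12.73, 11.71, 12.25 and 11.90 with FoxD3-VP16. It was lower in 4 of 4 pairs although the groups overlapped, and its difference of -0.32 passed with the block but not in the fit lacking it (SE 0.27, adjusted p = 0.593; 0.0104 with the block, and 0.0250 with the block once the arrays numbered 1 were left out of it). Probe set 1456381_x_at was at 9.72 to 9.89 on the arrays numbered 1 and at 11.1 to 11.5 on the others, whatever the vector.

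Bak1, an effector that forms pores in the outer mitochondrial membrane, was read above the limit by 1418991_at. It was at 8.99, 9.32, 9.04 and 9.31 with the empty vector. It was at 9.80, 9.73, 9.79 and 9.76 with FoxD3, and at 9.04, 9.65, 9.52 and 9.53 with FoxD3-VP16. Every FoxD3 array lay above every array of both other groups, and the 4 FoxD3 values were close together (SD 0.03). The difference from the empty vector was 0.60 (SE 0.17, 95% interval 0.25 to 0.96), a 1.52-fold higher level, and it missed the threshold without the block (adjusted p = 0.0842) and passed with it (adjusted p = 0.00876). It was called without the arrays numbered 1 (0.54, adjusted p = 0.0412) and without FoxD3-VP16 array 1 alone (0.61, adjusted p = 0.0350). FoxD3-VP16 differed from the empty vector by 0.27 (95% interval -0.09 to 0.63) and from FoxD3 by -0.33 (95% interval -0.69 to 0.02), and neither passed in either fit. The second Bak1 probe set, 1425716_s_at, had a mean of 5.49 and was too dim to test. Its untested differences from the empty vector were 0.59 with FoxD3 and -0.39 with FoxD3-VP16, and FoxD3-VP16 differed from FoxD3 by -0.98.

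Bid, which death receptor signalling links to the mitochondria once caspase 8 cuts the protein, was read by 3 probe sets above the limit. Its brightest, 1417045_at, was at 10.47, 10.81, 10.47 and 10.64 with FoxD3. With FoxD3-VP16 it was at 9.84, 9.97, 9.74 and 9.88, and with the empty vector at 9.64, 9.77, 10.43 and 10.41. All FoxD3 arrays lay above all arrays of both other groups, and the empty-vector arrays numbered 1 and 2 lay well below those numbered 3 and 4. Bid was lower with FoxD3-VP16 than with FoxD3 by a log2 difference of -0.74 (SE 0.19, adjusted p = 0.0371; 0.00455 with the block), or 1.67-fold, in 4 of 4 pairs. The mean was 10.60 ± 0.16 with FoxD3 and 9.86 ± 0.10 with FoxD3-VP16 (SD, n = 4). The call was lost without any 1 of the 8 arrays of these groups, with adjusted p between 0.0519 (without FoxD3 array 1) and 0.107 (without FoxD3-VP16 array 3). It held without all 3 arrays numbered 1 (-0.76, adjusted p = 0.0224). It was lost on the values as deposited (-0.73, adjusted p = 0.0620) and with no filter on dim probe sets (adjusted p = 0.0521).

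Against the empty vector this Bid probe set was 0.53 higher with FoxD3 (SE 0.19, adjusted p = 0.210), in 4 of 4 pairs with differences of 0.83, 1.04, 0.04 and 0.23. It passed with the block (adjusted p = 0.0402), the one alternative of 24 that called it. FoxD3-VP16 differed from the empty vector by -0.20 (95% interval -0.62 to 0.21). The 2 dimmer Bid probe sets, 1448560_at and 1447873_x_at, differed from the empty vector by 0.31 and 0.28 with FoxD3. With FoxD3-VP16 they differed from it in opposite directions, by -0.89 and 0.18. None of these differences passed in either fit. Between the transgenes both means were lower with FoxD3-VP16, by unlike amounts. Probe set 1448560_at was at 8.0, 8.04, 8.03 and 7.76 with FoxD3 and at 4.78, 7.69, 7.31 and 7.27 with FoxD3-VP16. Here too every FoxD3-VP16 array was the lower, with the array numbered 1 far below the rest. Its difference of -1.19 (SE 0.50, adjusted p = 0.203; 0.0369 with the block) shrank to -0.55 without the arrays numbered 1 (adjusted p = 0.0914; 0.0434 with the block). Probe set 1447873_x_at overlapped between the transgenes and differed by -0.10 (95% interval -1.0 to 0.81).

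**Figure D3:**
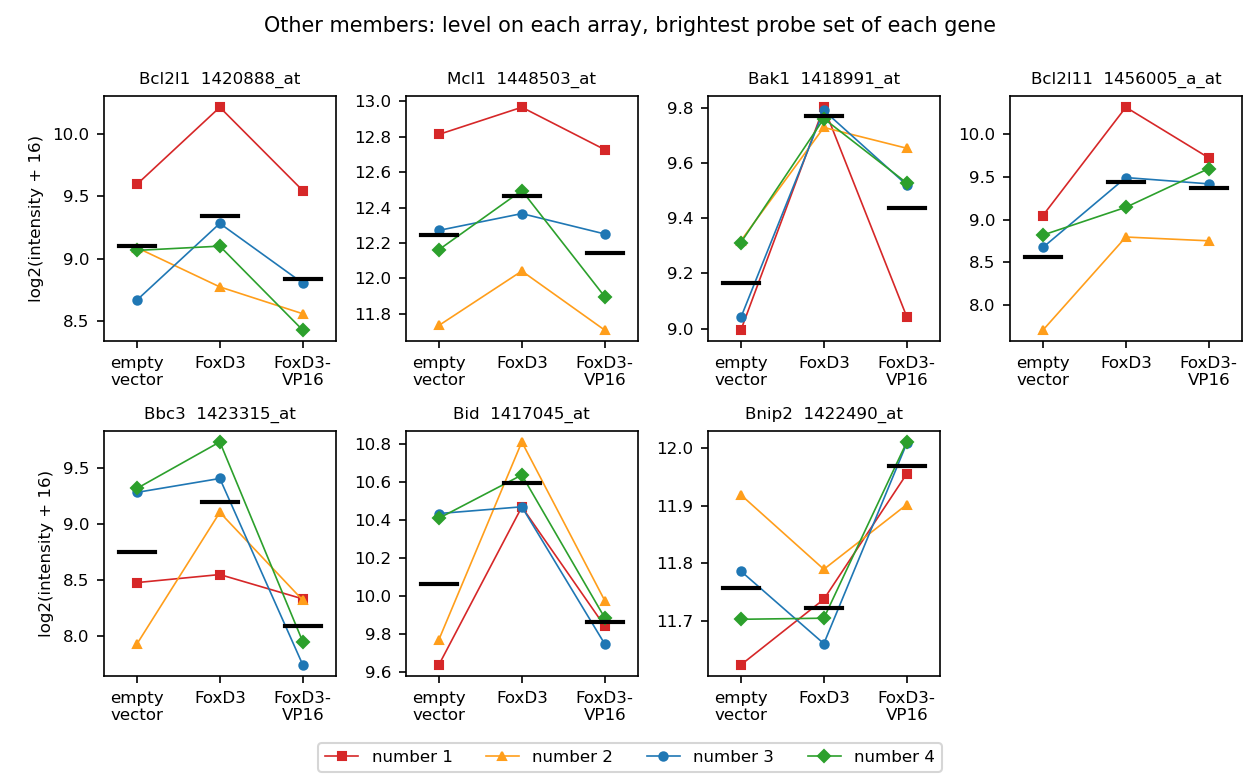
Level of the brightest probe set of 7 other members, log2(intensity + 16), on the 12 arrays, with arrays of the same number joined and group means as black bars. The FoxD3 arrays lie above all FoxD3-VP16 arrays for Bak1, Bbc3 and Bid and below them for Bnip2.

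Bbc3, a BH3-only gene known as a p53 target, was read by 1423315_at alone. It was at 8.48, 7.93, 9.28 and 9.32 with the empty vector and at 8.55, 9.10, 9.41 and 9.73 with FoxD3. With FoxD3-VP16 it was at 8.33, 8.32, 7.75 and 7.95. The FoxD3-VP16 arrays lay below all FoxD3 arrays, by 0.22 in the pair numbered 1 and by 0.78 to 1.78 in the others. The log2 difference was -1.11 (SE 0.33, 95% interval -1.82 to -0.40), a 2.16-fold lower level with FoxD3-VP16, and it missed the threshold without the block (adjusted p = 0.0653) and passed with it (adjusted p = 0.0116). It was called without the arrays numbered 1 (-1.45, adjusted p = 0.0237), without empty-vector array 2 (adjusted p = 0.0355), without FoxD3 array 1 (-1.33, adjusted p = 0.0358), in the fit of the 2 groups alone (adjusted p = 0.0416) and where probe sets were averaged by gene (adjusted p = 0.0494). The highest adjusted p, 0.204, came without FoxD3 array 4. Against the empty vector Bbc3 differed by 0.45 with FoxD3 (95% interval -0.27 to 1.16) and by -0.66 with FoxD3-VP16 (-1.38 to 0.05), and neither passed in either fit.

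Bcl2l11, whose protein Bim binds all prosurvival members, was read by 4 probe sets above the limit, and all 4 had higher means with both transgenes. The brightest, 1456005_a_at, was at 9.05, 7.70, 8.67 and 8.82 with the empty vector, at 10.32, 8.80, 9.49 and 9.14 with FoxD3 and at 9.72, 8.75, 9.42 and 9.60 with FoxD3-VP16. The groups overlapped, but both transgenes were the higher in 4 of 4 pairs. The differences were 0.88 with FoxD3 (SE 0.36, adjusted p = 0.289; 0.00371 with the block) and 0.81 with FoxD3-VP16 (SE 0.36, adjusted p = 0.556; 0.0134 with the block), and both also passed with the block without the arrays numbered 1 (adjusted p = 0.0124 and 0.0114). The 2 comparisons share their empty-vector arrays. The transgenes differed from each other by -0.06 (95% interval -0.83 to 0.71). Probe set 1435448_at differed by 0.54 and 0.59 and passed in neither fit (adjusted p = 0.0597 and 0.0652 with the block). Probe sets 1456006_at and 1435449_at differed by 0.38 and 0.52 with FoxD3 and by 0.12 and 0.19 with FoxD3-VP16, far from the threshold. Between the transgenes 1435448_at, 1456006_at and 1435449_at differed by 0.05, -0.26 and -0.33, and none passed in either fit. The fifth, 1426334_a_at, with a mean of 5.41, was too dim.

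Forkhead letters stood in the windows of both BH3-only genes named last, and these are shown for that reason; the second core also stood in 2 of 3 windows of Bcl2l1, which are not shown. The windows of 9 members were searched (15 starts), and 2 of the 15 held the first forkhead core, which 12% of all 32851 RefSeq windows of this length hold. The second stood in 3 (16% of all), the E-box in 2 (6.02%) and its variant in 1 (12.3%). The first Bcl2l11 window, chr2:128125788-128126037 on the plus strand, holds the first forkhead core on its other strand, read here as TAAACA, with its first base 226 bases before the start, and it is in capitals. The second Bbc3 window holds both forkhead cores side by side, the second of them on the other strand, 167 and 161 bases before the start, and the 30 bases around them, chr7:16310085-16310114 on the plus strand, are given with both in 1 run of capitals. A match of letters is a description of the sequence and not a bound site.
Bcl2l11: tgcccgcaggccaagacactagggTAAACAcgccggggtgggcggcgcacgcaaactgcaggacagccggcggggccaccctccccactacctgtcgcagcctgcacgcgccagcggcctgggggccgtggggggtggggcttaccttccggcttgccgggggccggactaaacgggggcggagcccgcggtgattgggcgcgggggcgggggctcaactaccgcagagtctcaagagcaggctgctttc
Bbc3: tggcgggttTGTTTACAAACAatggggttc

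Pmaip1, a BH3-only gene whose protein binds Mcl1, had 1 probe set, at 4.04 to 4.73 with the empty vector, 4.07 to 4.73 with FoxD3 and 4.12 to 4.44 with FoxD3-VP16. It lay below the limit of 5.88 on every array, and the groups overlapped. No difference could be read at that brightness.

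Bnip2, first found as a partner of Bcl2 and of an adenoviral protein, had 4 of its 8 probe sets above the limit. With FoxD3 they differed from the empty vector by -0.16 to 0.10, and none passed in either fit. With FoxD3-VP16 all 4 means were higher, by 0.08 to 0.35, and 1453993_a_at passed with the block but not in the fit lacking it (0.35, SE 0.17, adjusted p = 0.636; 0.0461 with the block, but 0.138 once the arrays numbered 1 were left out of it). In that probe set FoxD3-VP16 array 1 was at 12.37 and the other 3 at 11.75 to 11.85. Against FoxD3, FoxD3-VP16 was 0.23 to 0.47 higher, and 2 of the 4 passed with the block but not in the fit lacking it. Probe set 1422490_at was at 11.74, 11.79, 11.66 and 11.70 with FoxD3 and at 11.96, 11.90, 12.01 and 12.01 with FoxD3-VP16, without overlap, a difference of 0.25 (SE 0.11, adjusted p = 0.231; 0.0389 with the block, but 0.0623 once the arrays numbered 1 were left out of it). Probe set 1422491_a_at was 0.47 higher in mean (SE 0.19, adjusted p = 0.182; 0.00648 with the block, and 0.0159 with the block once the arrays numbered 1 were left out of it).

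Of 19 further Bcl2 family genes, 10 were tested with 17 probe sets, and none was called with either transgene against the empty vector (limma). An unadjusted p under 0.05 was reached by 2 with FoxD3 and 1 with FoxD3-VP16, beside 13.2% and 8.48% of all. Between the transgenes 1 of the 17 was called, lower with FoxD3-VP16, where 6.71% of all were called. It belongs to the BH3-only gene Hrk. Its probe set 1439854_at differed by -1.58 (SE 0.39, adjusted p = 0.0269), while its other, 1450366_at, differed by 0.29 and was not called. With the block the list had 1 probe set higher with FoxD3, 1 lower with FoxD3-VP16, and 3 lower between the transgenes, where the block called 14.3%, 6.75% and 24.4% of all tested probe sets. The median change of these 17 probe sets was 0.05, 0.09 and -0.06 in the 3 comparisons, beside -0.02, -0.02 and -0.01 over all tested probe sets. The 25 member probe sets had medians of 0.10, -0.04 and -0.08.

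Downstream of the family, 14 genes of the caspases and the apoptosome were tested with 26 probe sets. None was called against the empty vector (limma). An unadjusted p under 0.05 was reached by 4 with FoxD3 and 2 with FoxD3-VP16, beside 13.2% and 8.48% of all. Between the transgenes 2 of the 26 were called, where 6.71% of all were. Casp8, the initiator caspase of death receptors, was higher with FoxD3-VP16 (0.46, SE 0.13, adjusted p = 0.0485). Htra2, a mitochondrial protease that antagonizes inhibitors of apoptosis, was lower by 1 of its 2 probe sets (-0.66, SE 0.17, adjusted p = 0.0305). With the block 3 were higher and 2 lower with FoxD3, 2 higher and 1 lower with FoxD3-VP16, and 5 higher and 4 lower between the transgenes, beside the same 14.3%, 6.75% and 24.4% of all. Among the inhibitors of apoptosis, tested with 14 probe sets of 5 genes, 1 probe set was called with FoxD3, where 2.48% of all were. It was that of Birc2, a ubiquitin ligase of death receptor signalling, which fell by 0.80 (SE 0.15, adjusted p = 0.0108). Birc2 was also the 1 call between the transgenes, where 6.71% of all were called. It was 0.55 higher with FoxD3-VP16 than with FoxD3 (SE 0.15, adjusted p = 0.0399). With FoxD3-VP16 no gene of that list was called against the empty vector. There 0 had an unadjusted p under 0.05, beside 8.48% of all. From the death receptor list 7 genes were tested with 16 probe sets. They are the receptor gene Tnfrsf1a, and Tnfsf10, Fadd, Tradd, Traf2, Cflar and Bcl10, which do not encode receptors. None was called in any comparison (limma). An unadjusted p under 0.05 was reached by 1, 0 and 3 probe sets, beside 13.2%, 8.48% and 19.5% of all. With the block 1 was higher and 1 lower with FoxD3, and 2 were higher and 1 lower between the transgenes, where it called 14.3% and 24.4% of all.

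Genes known to regulate members were tested with 51 probe sets of 19 genes. With FoxD3, Mitf, the melanocyte regulator, fell by both of its tested probe sets, 1455214_at (-1.09, SE 0.19, adjusted p = 0.00734) and 1422025_at (-1.36, SE 0.30, adjusted p = 0.0319). Those are 2 of the 51 probe sets, where 2.48% of all were called with FoxD3. With FoxD3-VP16 none was called against the empty vector (limma). There 7 of the 51 had an unadjusted p under 0.05, 6 of them lower, beside 8.48% of all in either direction. Between the transgenes 3 of the 51 were called, where 6.71% of all were. Mitf was higher with FoxD3-VP16 than with FoxD3 by 1455214_at, just under the threshold (0.66, SE 0.19, adjusted p = 0.0499). Its other tested probe set, 1422025_at, was not called there. Jun, an AP-1 subunit, was lower with FoxD3-VP16 than with FoxD3 by both of its tested probe sets (-1.48, SE 0.36, adjusted p = 0.0267, and -1.20, SE 0.29, adjusted p = 0.0234). With the block 3 were higher and 4 lower with FoxD3, 8 were lower with FoxD3-VP16, and 5 were higher and 13 lower between the transgenes, of the 51 probe sets, beside 14.3%, 6.75% and 24.4% of all.

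The genes whose levels ran most like those of the called members over the 12 arrays, after the mean of each replicate number was taken away, were described by Pearson's r. For Bcl2 1457687_at they were AW209491 (r = 0.98), Cspp1 (0.98) and Rab11fip2 (0.98). Before the number means were taken away, r was 0.09, 0.63 and 0.66. For Bid 1417045_at they were Znrf3 (0.98), Cand1 (0.97) and Elovl4 (0.97), with r of 0.29, 0.79 and 0.76 before. The arrays share the vector groups and the numbers, and the 6 genes were picked as the highest of all tested probe sets, so these values have no test. None of the 6 was called against the empty vector with either transgene (adjusted p = 0.0811 to 0.942).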

How the data were processed

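B16-F10 cells of 3 groups were measured on 12 one-colour arrays, and groups and replicate numbers came from the sample titles. The values the authors deposited are linear intensities of 45101 probe sets per array. MAS5 is named per the submitters' processing notes, with its version not given in the sources used here, and a label names dChip. The deposited intensities have a mean without the lowest and highest 2% of 500.003 to 500.004 on every array, so a shared scaling had been applied.

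From them log2(intensity + 16) was computed and quantile normalized. The 64 control probe sets and those with several gene symbols (932) or not listed (9160) were left out. Of the 34945 left, the lowest 40% by mean over all arrays (under 5.88) were not tested. Symbols came from the platform's annotation. limma 3.58.1 in R 4.3.3 (lmFit, eBayes with an intensity trend) was fitted over all 12 arrays, which share 1 spread, with 9 residual degrees of freedom, and p-values were adjusted by Benjamini-Hochberg over 20967 probe sets. The calculation was tested on simulated data. Intervals are 95% intervals of that fit, and the number of arrays limits the precision. Plots were drawn with matplotlib 3.10.9.

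Whether the shared numbers pair the arrays was checked. For same-numbered arrays, the deviations from the group means correlated at 0.38 to 0.63 (12 pairs). Between numbers 3 and 4 this was 0.37 to 0.48 (6 pairs) and between other numbers -0.50 to 0.15 (30 pairs). The numbers were taken to pair the arrays on that ground alone, as no label says what a number shares. All tested probe sets of the members are given, some as a range over the gene, and the changes of only some of the dim ones. Named besides are up to 4 called genes per comparison of each other list and the 3 genes most like each called member. The members, lists and rules were chosen with earlier results of these data known. Alternatives were other pseudocounts, no normalization, no filter, other ways to join probe sets, the replicate block, array weights, the 2 groups alone, and arrays left out. Promoter sequences are from RefSeq (GRCm38.p6), and the members were matched to them by symbol. A filter on the chromosome was then applied to the members' windows, but not to the windows behind the shares of all. Windows of 9 of the 10 members were left, with none for Pmaip1.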

Additional observations from a re-analysis of the deposited data

Results flagged for a closer look

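In 12 of 75 groups of 4 arrays of the tested member probe sets, 1 array lay farther from the other 3 than Dixon's 95% critical value allows. Chance alone flags about 1 in 20 groups. Of the 12 values, 10 were on arrays numbered 1, 1 was on an array numbered 2 and 1 on an array numbered 4.

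With FoxD3, array 1 was low for Bcl2 1422938_at (4.54, others 6.63 to 6.92), for Bnip2 1441989_at (8.33, others 9.08 to 9.12) and for Mcl1 1456243_x_at (10.9, others 11.90 to 12.02) and 1456381_x_at (9.89, others 11.2 to 11.4). It was high for Bid 1447873_x_at (7.95, others 6.53 to 6.65). With FoxD3-VP16, array 1 was low for Bcl2 1443837_x_at (6.26, others 7.91 to 8.25) and Bid 1448560_at (4.78, others 7.27 to 7.69), and high for Bid 1447873_x_at (7.75, others 6.46 to 6.59) and Bnip2 1453993_a_at (12.4, others 11.7 to 11.8). With the empty vector, array 1 was low for Mcl1 1456381_x_at (9.82, others 11.3 to 11.5). The remaining flags were Bid 1448560_at on FoxD3 array 4 (7.76, others 7.998 to 8.04) and Bnip2 1422491_a_at on empty-vector array 2 (11.4, others 10.91 to 10.98). On the arrays numbered 1 the Gapdh probe sets at the 3′ end were 0.56 to 0.77 (log2) above those at the 5′ end, which is read as a sign of RNA quality, against -0.25 to 0.04 on the others. The same difference for the actin probe sets was 1.59 to 1.99 on the arrays numbered 1 and 1.29 to 1.67 on the others, which overlap. The part of RNA quality in these values was not tested.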

How the results depend on the processing

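Counts below are over all tested probe sets, or genes where probe sets were joined, for FoxD3 against empty vector, FoxD3-VP16 against empty vector and FoxD3-VP16 against FoxD3, in that order. No called change of a member reversed its direction. The counts were 520, 63 and 1407, with 1, 0 and 1 member probe sets. With the replicate block, taken as pairing, they were 3007, 1415 and 5119 (members 7, 3 and 11), without all arrays numbered 1 they were 1095, 250 and 2686 (members 3, 0 and 4), and with both, an alternative chosen after seeing the data, 2783, 1884 and 5109 (members 6, 3 and 8). Array quality weights gave 5698, 4511 and 6773 (members 7, 7 and 11). Fits of the 2 groups alone gave 324 and 20 in the first 2 comparisons and 2 members, Bid and Bbc3, in the last. Averaging all probe sets of a gene gave 918 genes in the last comparison, 0 member genes with FoxD3 and 2, Bid and Bbc3, between the transgenes. Values as deposited and no filter on dim probe sets each gave 0 members between the transgenes. Pseudocounts of 1 and 64, the brightest probe set per gene, and no probe sets of the _x_at kind kept all counts within 1.5 times. Leaving out each array in turn gave 200 to 700, 12 to 76 and 724 to 1595 calls, with 0 to 2, 0 and 0 to 2 members. Beyond the values printed above, the block changed no other call of a member probe set. With 4 arrays a group, a change that missed the threshold is not shown to be absent, and dim probe sets limit what could be read of Pmaip1.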
